A study of Mus musculus with 4 samples.

Results

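Layer 5 extratelencephalic-like excitatory nuclei of the mouse cerebral cortex were examined here for the effect of losing the creatine transporter. A nucleus was included when its raw UMIs (unique molecular identifiers, which count captured RNA molecules once) met every part of a fixed gate: at least 1 UMI of Slc17a7, none of Gad1 or Gad2, at least 1 of Bcl11b, at least 2 of the 5 genes Bcl6, Parm1, Pou3f1, Npr3 and Chrna6 detected, none of Deptor, at most 4 of Hs3st4 and at most 1 of Cux2. The gate took 248 of the 35694 nuclei in the series, 6 of which were called doublets and left out. The 242 nuclei that remained came from 34458 nuclei without doublets and from 10567 excitatory nuclei, meaning those with Slc17a7 and without Gad1 or Gad2. The gate itself uses measured values, so the levels of its own genes describe the choice and are given without a test.

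Extratelencephalic neurons of layer 5 are the large pyramidal cells whose axons leave the forebrain for targets such as the pons, the midbrain and the spinal cord, whereas intratelencephalic neurons project within the cortex and striatum. The transcription factor Fezf2 directs this fate and Bcl11b, also called Ctip2, acts downstream of it in the growth of the subcerebral axon. These cells have a thick apical dendrite with a wide tuft in layer 1. Creatine and phosphocreatine buffer ATP in neurons, and Slc6a8, the gene deleted in this model, encodes the transporter that brings creatine into the cell.

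Single-nucleus RNA was measured in 4 libraries, each made from FACS-sorted nuclei of the right cortical hemisphere of 1 male mouse at postnatal day 100. The 2 control mice were wild type (CrT+/y) and the 2 CrT-KO mice were littermates hemizygous for a constitutive deletion of several exons of Slc6a8 (CrT-/y), all on a C57Bl/6J background and untreated. The deletion acts in every cell of the body, so an effect in these nuclei need not arise in them. The libraries held 8282 to 9295 nuclei and 51507483 to 65240843 UMIs, and 96 barcodes occurred in more than 1 library, 2 of them in nuclei of the gate. The gated nuclei numbered 54 and 58 in the control libraries and 66 and 64 in the CrT-KO libraries (replicates 1 and 2 of each genotype, in that order throughout). Their summed UMIs were 728673 and 764662 in control and 891411 and 733097 in CrT-KO. The median depth per gated nucleus was 12646.5 and 12114 UMIs in control and 12995 and 10608.5 in CrT-KO, above the medians of 7711.5 to 9169.5 UMIs in the other excitatory nuclei. CrT-KO replicate 2 was the shallowest library in both populations. In sums over nuclei, fewer nuclei expressing a gene and less RNA per nucleus cannot be told apart.

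The name was first checked against 38 extratelencephalic marker genes that the gate did not use. Pooled over the libraries, 28 of the 38 were higher in the gated nuclei than in the other 10325 excitatory nuclei, 19 of them in 4 of 4 libraries. 9 were higher in none of the libraries, and Sncg and Igf1 had no UMI in the gated nuclei. Levels are given as CPM, the UMIs of a gene divided by all UMIs of that population in that library and multiplied by 1000000. Their summed level was 5669 and 5213 CPM in control and 5141 and 5605 CPM in CrT-KO, against 3063 CPM in the other excitatory nuclei. All libraries therefore carried the signature, with overlapping genotypes.

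Fezf2 stood at 15.1 and 18.3 CPM in control and 31.4 and 17.7 CPM in CrT-KO, against 3.92 CPM in the other excitatory nuclei. Erg, an ETS transcription factor, stood at 53.5, 74.5, 51.6 and 96.8 CPM against 3.01 CPM. Coro6, a coronin that binds actin, stood at 35.7, 36.6, 55.0 and 49.1 CPM against 6.28 CPM. Every library lay above the comparison level for these 3 genes, although they were detected in few nuclei: Fezf2 was seen in 47 of the 242 (19.4%), against 3.23% of the other excitatory nuclei and 0.506% of oligodendrocytes, whose median depth was only 1292 to 1475 UMIs. Vat1l (148, 139, 133 and 143 CPM against 29.4), the sulfotransferase gene Chst8 (198, 186, 251 and 211 CPM against 51.6) and the nuclear factor gene Tox (948, 844, 1021 and 877 CPM against 278) were likewise higher in each library. Ldb2, a LIM-domain binding cofactor, reached 1272, 1170, 978 and 1355 CPM against 432. Some listed genes went against the name. The semaphorin receptor gene Plxnd1 had a pooled level of 1.60 CPM against 15.2, Foxo1 5.77 against 15.1, Ptprk 297 against 550 and Astn2 638 against 762. Plxnd1 is also on the list of intratelencephalic markers used below.

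**Figure D1:**
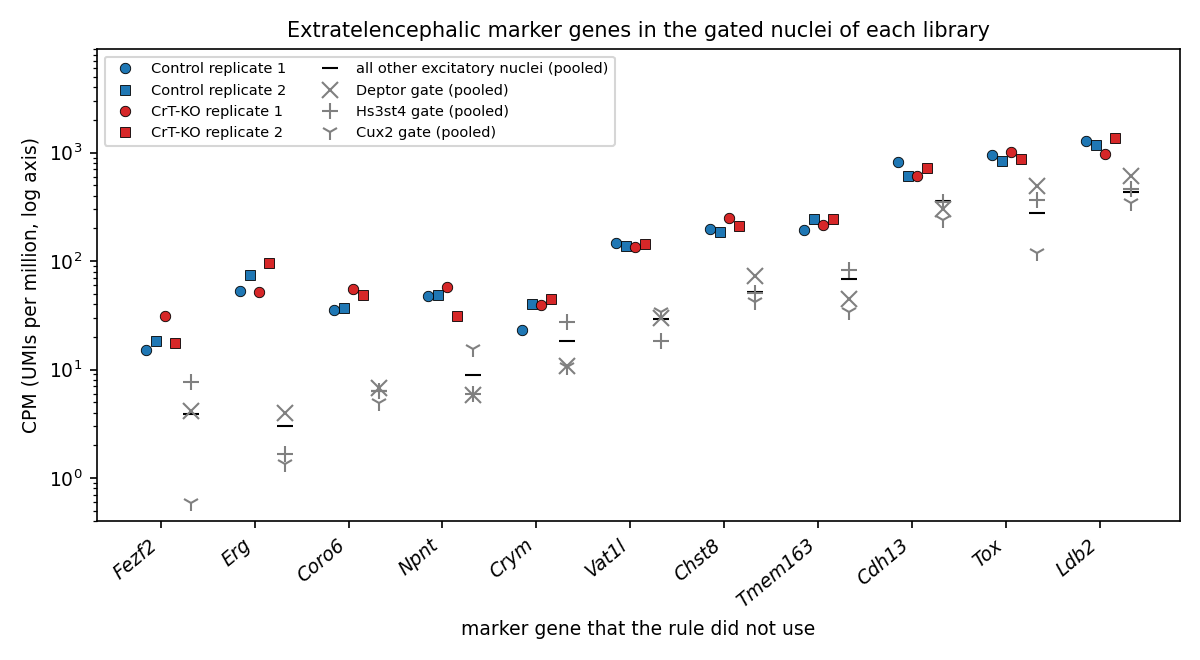
Level of 11 extratelencephalic marker genes that the gate did not use, in CPM on a log axis, in the gated nuclei of each library (coloured points) and pooled over other excitatory nuclei, all of them or those of the Deptor, Hs3st4 and Cux2 gates (grey and black marks). For Erg the 4 libraries lie at 51.6 to 96.8 CPM, while the other excitatory nuclei together lie at 3.01 CPM.

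Markers of some other cells were low and those of others were not. Of 25 intratelencephalic markers, 20 were lower in the gated nuclei in all 4 libraries and 3 were higher in all 4. Adamts2 was among those 3, with a mean of 93.7 against 25.7 CPM. The intratelencephalic list had a summed level of 1064 to 1241 CPM against 2432 CPM. Markers of layer 6 corticothalamic neurons summed to 1803 to 2183 CPM against 2586 CPM, and of the layer 6b markers Cplx3, Ccn2 and Nxph4 had no UMI. The inhibitory list summed to 333 and 354 CPM in control and 237 and 143 CPM in CrT-KO, against 784 CPM, with no UMI of Lhx6. Striatal projection neuron markers summed to 1835 to 2384 CPM against 2134 CPM, almost all of it Pde10a and Meis2. Prox1, Gja1, Csf1r, C1qa and Cldn5, which define granule cells of the hippocampus, astrocytes, microglia and endothelium, were at 0. Other genes of these lists were detected. Hippocampal and subicular markers summed to 339 to 414 CPM against 403 CPM, with 7 of 16 higher in the pooled gated nuclei. Astrocyte markers summed to 132 to 213 CPM against 604 CPM and microglial markers to 32.7 to 45.3 CPM against 53.0 CPM. The sums were 2.24 to 21.8 CPM against 10.9 CPM for endothelial and pericyte markers and 150 to 259 CPM against 176 CPM for oligodendrocyte markers. In the intratelencephalic, striatal and inhibitory lists both CrT-KO libraries had lower sums than both control libraries, with 1241 and 1197 CPM in control against 1191 and 1064 CPM in CrT-KO for the first and 2244 and 2384 CPM against 1835 and 2162 CPM for the second. Near-projecting markers also moved with genotype. They summed to 2148 and 1807 CPM in control and 1526 and 1285 CPM in CrT-KO, against 1437 CPM, and Npsr1, Tshz2 and Dgkb made up most of that sum. Slc17a8, Trhr and Sla2, also in that list, had at most 7.85 CPM in any library. Of its 15 markers, 3 were higher in the gated nuclei in 4 of 4 libraries and 5 were higher in 0. Stac, another of them, had a mean of 47.1 against 8.51 CPM and was higher in each library.

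The gate rested mainly on 3 of its 5 choice genes. Npr3, a natriuretic peptide clearance receptor, was detected in 85.1% of the gated nuclei, Parm1 in 79.8%, the transcriptional repressor gene Bcl6 in 52.9% and the POU factor gene Pou3f1 in 15.7%. In oligodendrocytes the shares were 0.989% for Npr3, 12.6% for Parm1, 3.89% for Bcl6 and 1.38% for Pou3f1. Chrna6 was found in 1 nucleus. The pair of Parm1 and Npr3 occurred together in 159 nuclei, Bcl6 and Npr3 in 99 and Bcl6 and Parm1 in 82. Per library, Npr3 stood at 172, 122, 140 and 153 CPM, Parm1 at 199, 167, 122 and 252 CPM and Bcl6 at 59.0, 49.7, 65.1 and 92.8 CPM. The genotypes overlapped for Npr3 and Parm1, while both CrT-KO libraries lay above both control libraries for Bcl6.

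Most gated nuclei sat close to the edge of the gate. Exactly 2 of the 5 genes were found in 170 nuclei (median depth 11581.5 UMIs), 3 or more in 72 (13126 UMIs), 4 in 10 and all 5 in 0. Just outside, 291 nuclei met everything else with exactly 1 of the 5 genes (median depth 10199 UMIs). Bcl11b had exactly 1 UMI in 33 gated nuclei and 2 or more in 209, and 49 nuclei met the rest with none. The exclusions removed 27 nuclei by Deptor alone, 104 by Hs3st4 alone and 27 by Cux2 alone. The depth of a nucleus thus moved with how many of the genes were seen in it.

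The gated nuclei were also placed by clustering the 10567 excitatory nuclei without doublets on variable genes, with the 12 genes of the gate left out. 1 of the 31 clusters, named here cluster 8 and led by Tcerg1l, Erg, L3mbtl4, Gm19410 and Trpc7, took 200 of the 242 (82.6%). The other 42 were spread over 9 clusters: 17 in cluster 3, led by Pde11a and Dach1, 9 in cluster 17, led by Galnt14 and Blnk with Npsr1 and Cdh9 among its top 10 genes, 6 in cluster 23, led by Ndst4, and 10 elsewhere. Erg, Fezf2 and Coro6 had no UMI in the gated nuclei of clusters 3 and 17. The nuclei outside cluster 8 numbered 10 and 15 in control (18.5% and 25.9%) and 11 and 6 in CrT-KO (16.7% and 9.38%). They supplied 17.0% and 25.4% of the summed UMIs in control and 14.9% and 6.60% in CrT-KO, so this share was lower in both CrT-KO libraries. Results that rest on them are given below with and without them, in an alternative added after seeing the data. Cluster 8 also held 249 nuclei that the gate refused, 161 of them with fewer than 2 of the 5 genes and 77 with more than 4 UMIs of Hs3st4.

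Beyond the gate, the gated nuclei had a distinct set of abundant genes, given here as a description because the nuclei were chosen on correlated genes. Wwtr1, a cofactor of the Hippo pathway, had a mean of 34.5 CPM against 3.65 CPM in the other excitatory nuclei, Tcerg1l 159 against 17.8 and the protease inhibitor gene Serpine2 95.8 against 17.3. Receptor channels of the TRPC family were high, with Trpc7 at 56.7 against 5.76 CPM and Trpc4 at 314 against 65.6 CPM, and so was Adra1a, the alpha-1A adrenergic receptor (104 against 21.5 CPM). Tafa1, a secreted TAFA-family protein, was at 6105 against 1708 CPM. As background, 976 of 3887 genes with at least 100 UMIs in the gated nuclei lay above the other excitatory nuclei in 4 of 4 libraries and 992 lay below in 4 of 4.

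Ion channels separated in both directions. Kcnn2, a small-conductance calcium-activated potassium channel, had a mean of 696 against 214 CPM in the other excitatory nuclei and Cacna1h, a T-type calcium channel, at 48.0 against 10.8 CPM. In contrast, Kcnc2, a Kv3 channel of fast repolarization, stood at 90.8 against 412 CPM, Kcnh5 at 51.9 against 255 CPM and Kcnh1 at 131 against 370 CPM. Of 28 potassium channel genes with enough UMIs, 8 were higher and 14 lower in 4 of 4 libraries. Of 27 axon guidance genes, 16 were higher and 7 lower, among them Robo1 (2310 against 913 CPM) and Slit3 (1478 against 955 CPM) on the high side and the netrin receptor gene Dcc (493 against 1078 CPM) and Slit1 (49.3 against 124 CPM) on the low side.

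The first comparison asked whether these nuclei were as frequent without the transporter. They made up 2.24% of excitatory nuclei in control replicate 1 (exact Clopper-Pearson 95% interval 1.68% to 2.91%), 2.15% in control replicate 2 (1.64% to 2.77%), 2.33% in CrT-KO replicate 1 (1.80% to 2.95%) and 2.45% in CrT-KO replicate 2 (1.89% to 3.11%). Both CrT-KO libraries lay above both control libraries, but all the intervals overlapped. The means were 2.19% ± 0.0598 (SD, n = 2) in control and 2.39% ± 0.0855 (SD, n = 2) in CrT-KO. They differed by 0.193 percentage points, with a two-sided exact permutation p of 0.333, the smallest that 2 against 2 libraries allow. These intervals cover counting error only. After each nucleus was thinned to 5000 UMIs the shares were 0.851% and 1.29% in control and 0.904% and 1.80% in CrT-KO, and the genotypes overlapped (exact permutation p = 0.667). The thinning left out 264 and 281 excitatory nuclei counted in control and 231 and 351 in CrT-KO that had fewer UMIs. No difference in frequency was detectable with this design.

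**Figure D2:**
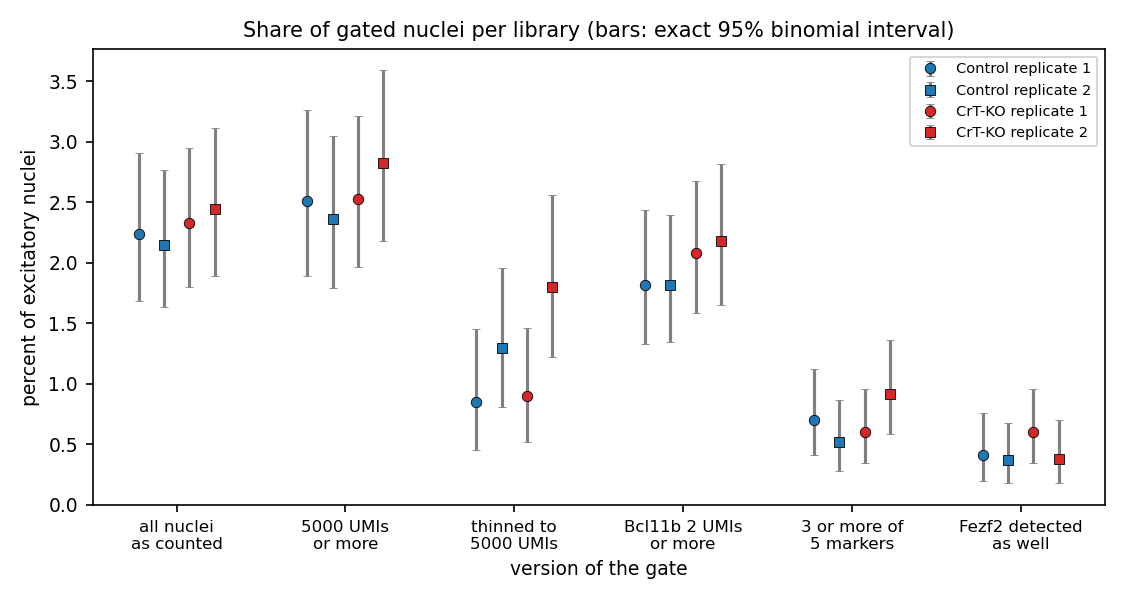
Share of gated nuclei among excitatory nuclei in each library, in percent, under 6 versions of the gate, with exact 95% binomial intervals as bars. As counted, the shares lie between 2.15% and 2.45% with overlapping intervals; requiring 3 or more of the 5 genes or Fezf2 as well leaves under 1% in every library.

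Slc6a8 itself was sparse in these nuclei. It lies on chromosome X at 73673150 to 73682502 (GRCm38, plus strand) and gave 5 and 4 UMIs in control and 1 and 0 in CrT-KO. Both control libraries were above both CrT-KO libraries. The pooled level was 6.03 CPM in control and 0.616 CPM in CrT-KO, a ratio of 0.102 with an exact 95% counting interval of 0.00233 to 0.737. At 10 UMIs in all it did not pass the filter on low counts and was not tested. UMIs were counted over the whole gene body, so the remaining UMI need not come from the deleted exons.

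Genes of creatine synthesis and energy buffering gave no call. Ckb, the brain cytosolic creatine kinase, had 18 and 15 UMIs in control and 21 and 26 in CrT-KO (log2 change 0.39, the log2 of the CrT-KO over control fold, edgeR adjusted p = 0.897). Ckmt1, the ubiquitous mitochondrial creatine kinase, had 19, 27, 23 and 29 UMIs (log2 0.06, edgeR adjusted p = 0.995), and Ckmt2 had 14, 7, 13 and 15 (log2 0.30, edgeR adjusted p = 0.954). The genotypes overlapped in CPM for all 3 kinases. Gatm and Gamt, the enzymes of creatine synthesis, had at most 2 UMIs in any library and Ckm had none, so they could not be tested.

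The main comparison asked which genes differed between CrT-KO and control in these nuclei. UMIs were summed per library and tested with edgeR's quasi-likelihood test, with Benjamini-Hochberg adjustment over all 6414 genes that passed the filter. At an adjusted p under 0.1, 35 genes were called (0.546%), of which 34 fell (0.53%) and 1 rose (0.0156%). An unadjusted p under 0.05 was reached by 176 genes upward (2.74%) and 253 downward (3.94%), and the median log2 change over all genes tested was -0.0024. In all 35 called genes the libraries of the genotypes did not overlap, as was the case for 17% of all genes tested in the upward and 18.7% in the downward direction. DESeq2 called 13 genes, 12 of them among the 35 and including Fgf1, Dcc, Kcnc2, Prkg1, Unc5d and Gm15155 but not Npsr1 or Arhgap26. With 2 mice per genotype, each p-value rests on 2 residual degrees of freedom and a spread shared across genes.

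**Figure D3:**
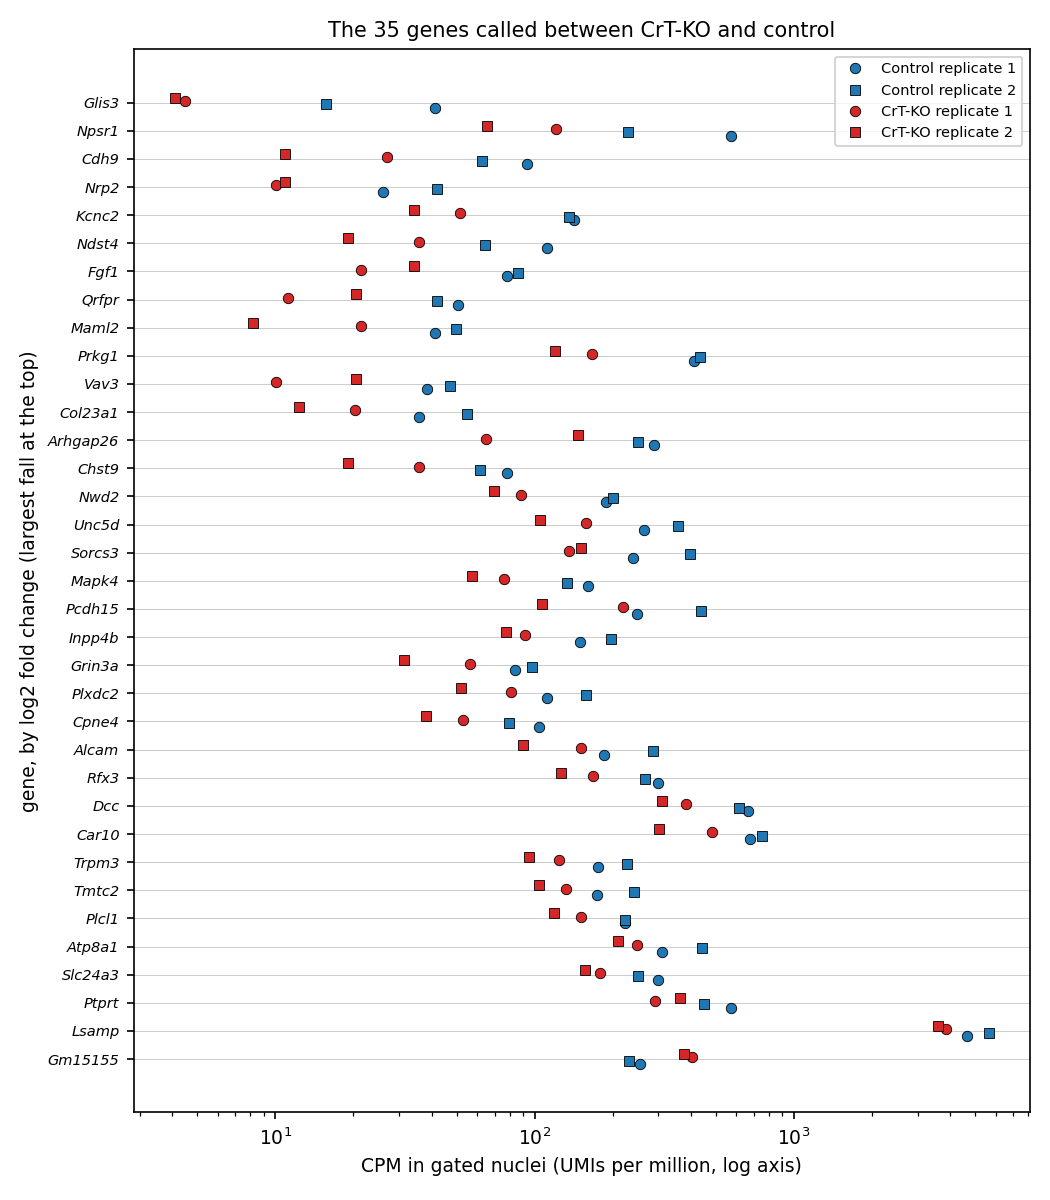
CPM of the 35 called genes in the gated nuclei of each library on a log axis, ordered from the largest fall to the only rise, Gm15155. Blue points are control and red points CrT-KO libraries; in each gene the 2 red points lie on 1 side of the 2 blue points.

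The 15 largest falls were, in order, in Glis3, Npsr1, Cdh9, Nrp2, Kcnc2, Ndst4, Fgf1, Qrfpr, Maml2, Prkg1, Vav3, Col23a1, Arhgap26, Chst9 and Nwd2, with log2 changes from -2.66 to -1.28. They divide by whether the fall was also present among the 200 gated nuclei of cluster 8. Of the 34 genes that fell, 29 had a higher pooled CPM in the 42 gated nuclei outside the cluster than in the 200 inside it. 30 could be tested inside, where 10 were called again among 12 called of 5978 genes (0.201%), 27 kept a negative log2 change and 13 kept less than 0.5 of its size. The clusters were formed on 3000 variable genes of these same nuclei, without the genes of the gate. Which of the called genes were among the 3000 is not given, so the clusters cannot be taken as independent of the genes tested.

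**Figure D4:**
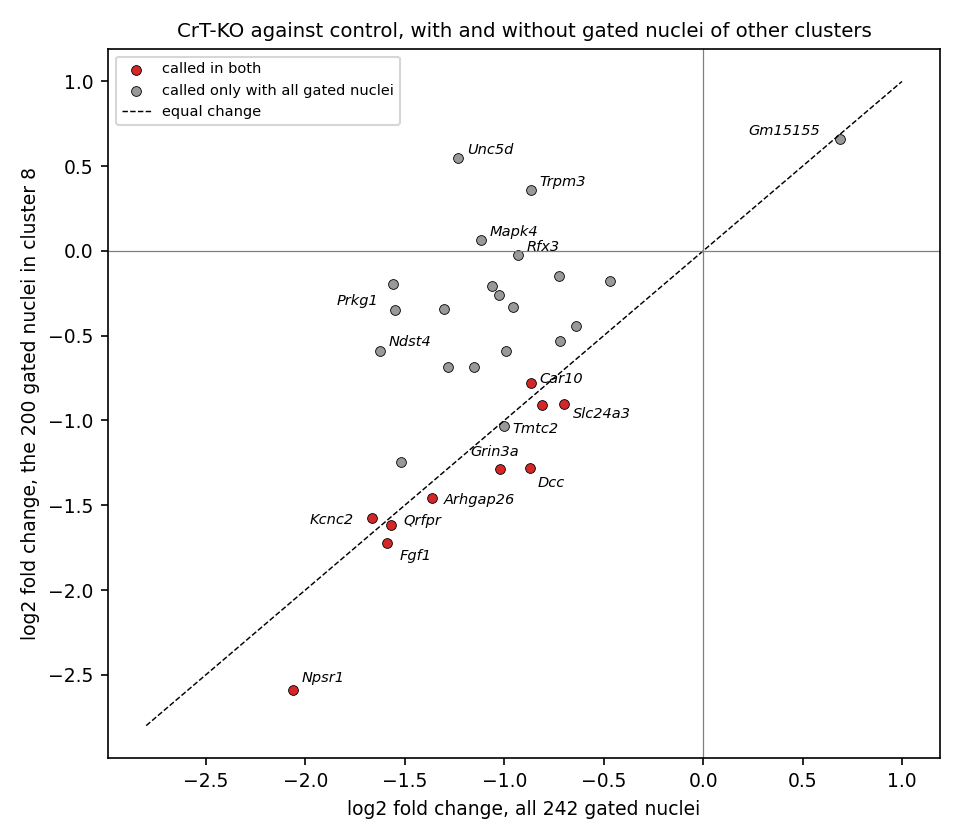
Log2 change of CrT-KO against control for the called genes that could be tested in both, with all 242 gated nuclei on the x axis and with the 200 of cluster 8 on the y axis. Red points were called in both. Fgf1, Arhgap26, Kcnc2 and Qrfpr lie near the dashed line of equal change. Npsr1 (-2.06 and -2.59) and Dcc (-0.87 and -1.28) lie below it, while Unc5d, Trpm3 and Mapk4 lie above 0 on the y axis.

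Fgf1, which encodes acidic fibroblast growth factor, fell in the gated nuclei with and without those of other clusters. It lies on chromosome 18 at 38838673 to 38929472 (minus strand) and had 57 and 66 UMIs in control (78.2 and 86.3 CPM) and 19 and 25 in CrT-KO (21.3 and 34.1 CPM). Both CrT-KO libraries were far below both control libraries. The log2 change was -1.59 (SE 0.27, edgeR adjusted p = 0.00714) over all gated nuclei and -1.72 (edgeR adjusted p = 0.00292) in those of cluster 8, where the levels were 91.0, 109, 23.7 and 36.5 CPM. Its UMIs were spread over 29 and 30 nuclei in control and 13 and 15 in CrT-KO. Among all 449 nuclei of cluster 8, where 8 of 7863 genes were called (0.102%), the change was -1.71 (edgeR adjusted p = 0.00234).

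Arhgap26, a GTPase-activating protein gene counted under the identifier ENSMUSG00000118193, fell beside it. Its span on chromosome 18, 38676718 to 39110534 on the plus strand, contains the whole of Fgf1 on the opposite strand. It had 210 and 191 UMIs in control (288 and 250 CPM) and 58 and 108 in CrT-KO (65.1 and 147 CPM). The CrT-KO libraries differed from each other but stayed below both control libraries, with a log2 change of -1.37 (SE 0.24, edgeR adjusted p = 0.00894) and of -1.46 (edgeR adjusted p = 0.00292) in cluster 8. Whether counting used strand is not given in the sources used here, so reads of this overlapping pair cannot be told apart with certainty. Without CrT-KO replicate 1 the change was -0.84 and still called. A second identifier with the same symbol, ENSMUSG00000036452, overlaps ENSMUSG00000118193 on the same plus strand, so strand could not separate their reads. It had 326 and 305 UMIs in control and 363 and 363 in CrT-KO (log2 0.09, edgeR adjusted p = 0.950).

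Npsr1, the receptor of neuropeptide S, showed the largest fall among the genes called in the gated nuclei of cluster 8. It lies on chromosome 9 at 24097996 to 24316398 and had 416 and 175 UMIs in control (571 and 229 CPM) and 108 and 48 in CrT-KO (121 and 65.5 CPM). The lowest control library was above the highest CrT-KO library, but the control libraries also differed from each other (mean 400 ± 242 CPM, SD, n = 2, against 93.3 ± 39.4 CPM). The log2 change was -2.06 (SE 0.30, edgeR adjusted p = 0.00237), and -2.59 (edgeR adjusted p = 1.87e-05) with the gated nuclei of cluster 8 only. Few nuclei carried it: 15 and 9 in control and 9 and 7 in CrT-KO had a UMI, and 1 nucleus held 24.0% to 29.6% of each library's UMIs. Without Control replicate 1, the library with the highest level, the change was -1.27 and still called, and DESeq2 gave Npsr1 an adjusted p of 0.803. Npsr1 is itself one of the near-projecting markers whose summed level was lower in CrT-KO, and the part of that list in its fall was not tested.

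Dcc, the netrin-1 receptor, fell more among the gated nuclei of cluster 8 than over all of them. It had 485 and 468 UMIs in control (666 and 612 CPM) and 342 and 228 in CrT-KO (384 and 311 CPM), a log2 change of -0.87 (SE 0.14, edgeR adjusted p = 0.00471). In cluster 8 the levels were 544 and 291 CPM in control and 221 and 118 CPM in CrT-KO, a log2 change of -1.28 (edgeR adjusted p = 0.0236). Outside it they were 1257 and 1553 CPM in control and 1311 and 3038 CPM in CrT-KO, where the genotypes overlapped. A single nucleus held 33.2% of the Dcc UMIs of Control replicate 1 and 36.8% of those of CrT-KO replicate 2. In Control replicate 1 only 156 of the 485 UMIs lay outside cluster 8, so that nucleus was inside it. In CrT-KO replicate 2 only 81 of the 228 lay inside, so that nucleus was outside. The part of these single nuclei in the larger fall inside cluster 8 was not tested. Npsr1, Fgf1, Arhgap26 and Dcc were the 4 falls called in the gated nuclei, in those of cluster 8 and in the whole cluster. Over all gated nuclei each of the 4 was also called with any 1 library left out.

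Kcnc2 fell from 103 and 104 UMIs in control (141 and 136 CPM) to 46 and 25 in CrT-KO (51.6 and 34.1 CPM). The genotypes were well apart, with a log2 change of -1.67 (SE 0.21, edgeR adjusted p = 0.000528), and -1.58 (edgeR adjusted p = 0.0874) in cluster 8, where it stood at 95.9, 49.1, 34.3 and 13.1 CPM. Over all nuclei of cluster 8 the change was -0.62 and not called (edgeR adjusted p = 0.804). Kcnc2 is among the inhibitory markers whose sum was lower in CrT-KO, the part of the other markers in its fall was not tested, and the pooled level was 46.2 CPM inside cluster 8 and 314 CPM outside. Qrfpr, the receptor of the neuropeptide QRFP, had 37 and 32 UMIs in control (50.8 and 41.9 CPM) and 10 and 15 in CrT-KO (11.2 and 20.5 CPM). Both CrT-KO libraries lay well below the lower control library, and the log2 change was -1.57 (SE 0.33, edgeR adjusted p = 0.0538), and -1.62 (edgeR adjusted p = 0.0576) in cluster 8. The call of Qrfpr was lost without CrT-KO replicate 1 (log2 -1.14). Grin3a, the GluN3A subunit of NMDA receptors, had 61, 75, 50 and 23 UMIs (83.7, 98.1, 56.1 and 31.4 CPM), a log2 change of -1.02 (edgeR adjusted p = 0.0987) and of -1.28 (edgeR adjusted p = 0.0547) in cluster 8. Its call over all gated nuclei was lost without Control replicate 2 (log2 -0.88) or CrT-KO replicate 2 (log2 -0.70).

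The other 3 falls called again in cluster 8 are named after their values were seen. Car10, a catalytically inactive relative of carbonic anhydrases that binds neurexins, had 495, 577, 429 and 221 UMIs (679, 755, 481 and 302 CPM), with a log2 change of -0.86 (edgeR adjusted p = 0.0187) and of -0.78 in cluster 8 (edgeR adjusted p = 0.0619). Slc24a3, a sodium-calcium-potassium exchanger, had 217, 191, 159 and 115 UMIs, with changes of -0.70 (edgeR adjusted p = 0.0830) and -0.90 (edgeR adjusted p = 0.0576). Tmtc2, an O-mannosyltransferase of the endoplasmic reticulum, had 127, 185, 118 and 76 UMIs, with changes of -0.81 (edgeR adjusted p = 0.0900) and -0.91 (edgeR adjusted p = 0.0759). In each of these genes both CrT-KO libraries lay below both control libraries. Without CrT-KO replicate 2 none of the 3 was called (log2 -0.58 for Car10, -0.62 for Slc24a3 and -0.66 for Tmtc2), nor was Slc24a3 without Control replicate 1 (-0.58) or Tmtc2 without Control replicate 2 (-0.52).

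A larger group fell over all gated nuclei without a call in cluster 8. Prkg1, the cGMP-dependent protein kinase and the gene with the smallest p, had 299 and 332 UMIs in control (410 and 434 CPM) and 148 and 88 in CrT-KO (166 and 120 CPM), a log2 change of -1.55 (SE 0.17, edgeR adjusted p = 7.84e-05). Its pooled level was 39.7 CPM in the gated nuclei of cluster 8 and 1527 CPM in the others. Inside, the 4 libraries stood at 41.3, 49.1, 47.5 and 21.9 CPM and overlapped, with a log2 change of -0.35 (edgeR adjusted p = 0.942). Over all nuclei of cluster 8 the change was upward (log2 0.84, edgeR adjusted p = 0.0905). Most UMIs of Prkg1 therefore came from nuclei that clustered elsewhere. In those nuclei it stood at 2208 and 1563 CPM in control and 844 and 1509 CPM in CrT-KO, lower in both CrT-KO libraries, as was their share of the summed UMIs. The parts of these differences in the fall over all gated nuclei were not tested.

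Unc5d, another netrin receptor, behaved likewise. It had 193, 272, 140 and 77 UMIs (265, 356, 157 and 105 CPM), a log2 change of -1.23 (SE 0.19, edgeR adjusted p = 0.00458). In cluster 8 it stood at 43.0 and 56.1 CPM in control and 81.7 and 61.3 CPM in CrT-KO, so the CrT-KO libraries were the higher ones there (log2 0.55, edgeR adjusted p = 0.788). Outside, Unc5d stood at 1346 and 1234 CPM in control and 588 and 723 CPM in CrT-KO. Mapk4, an atypical MAP kinase, had 117, 102, 68 and 42 UMIs (log2 -1.12, edgeR adjusted p = 0.00894), with pooled levels of 51.2 CPM inside and 390 CPM outside and a change of 0.06 (edgeR adjusted p = 0.989) inside. Outside, Mapk4 stood at 645 and 411 CPM in control and 234 and 82.7 CPM in CrT-KO, so both genes were lower in CrT-KO there. For Mapk4 a single nucleus held 48.7% of the UMIs of Control replicate 1 and 36.3% of those of Control replicate 2. Cluster 8 held only 37 and 22 Mapk4 UMIs in these libraries, so both nuclei were outside it. Their part in the fall of Mapk4 was not tested. Trpm3, a cation channel gene, changed from -0.86 (edgeR adjusted p = 0.0616) to 0.36 (edgeR adjusted p = 0.892) once only cluster 8 was kept. Trpm3 and Inpp4b, which also fell (log2 -1.02, edgeR adjusted p = 0.0151), are on the list of corticothalamic markers.

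**Figure D5:**
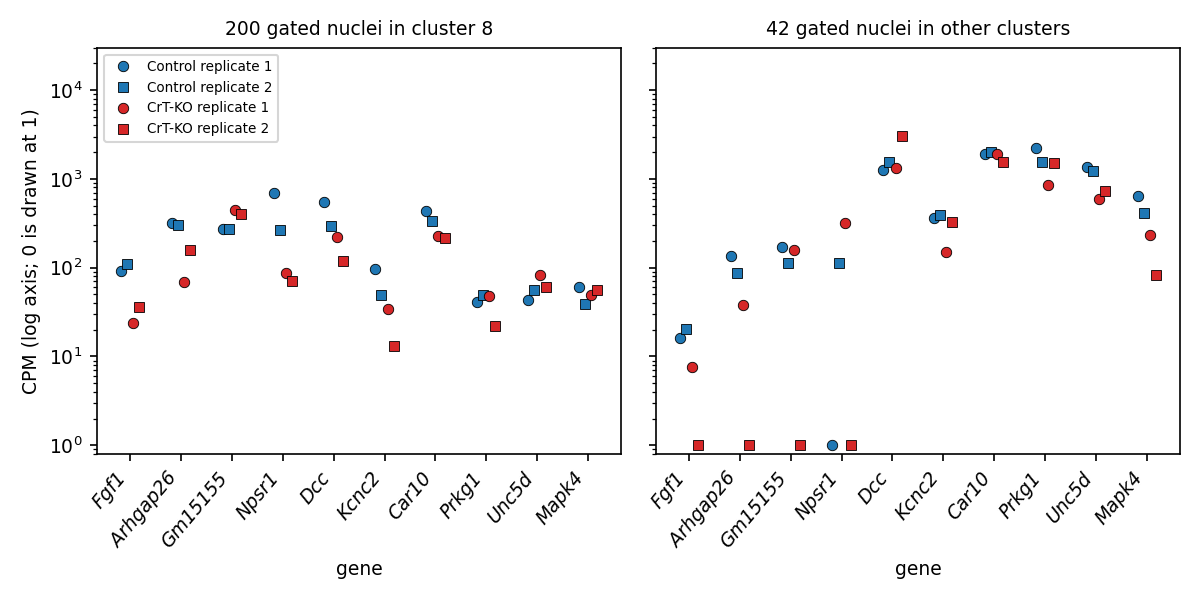
CPM on a log axis (0 drawn at 1) of 10 called genes in each library, for the 200 gated nuclei of cluster 8 on the left and the 42 of other clusters on the right. Fgf1 and Arhgap26 are separated by genotype on the left, whereas Prkg1, Unc5d and Mapk4 overlap or turn there and are far higher on the right (Prkg1 pooled at 39.7 against 1527 CPM).

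Several of the largest falls rested on few nuclei. Ndst4, a heparan sulfate sulfotransferase and the leading gene of cluster 23, had 81, 49, 32 and 14 UMIs (log2 -1.62, edgeR adjusted p = 0.0151) in 7, 10, 5 and 4 nuclei, with 38.8% to 71.4% of each library's UMIs in 1 nucleus. Its pooled level was 10.3 CPM inside cluster 8 and 298 CPM outside. Glis3, a zinc finger transcription factor, had 30, 12, 4 and 3 UMIs (log2 -2.66, edgeR adjusted p = 0.0637). Both CrT-KO libraries were at or near 3 UMIs, and the call was lost without Control replicate 1 (log2 -1.83). Cdh9, a classical cadherin, had 68, 48, 24 and 8 UMIs (log2 -1.98, edgeR adjusted p = 0.00567), and Nrp2, a coreceptor of class 3 semaphorins, had 19, 32, 9 and 8 (log2 -1.69, edgeR adjusted p = 0.0958). Glis3, Cdh9, Nrp2 and the transmembrane collagen gene Col23a1 did not pass the filter inside cluster 8. Among the rest of the 15, the Notch coactivator gene Maml2, the guanine nucleotide exchange factor gene Vav3, the sulfotransferase gene Chst9 and Nwd2 kept log2 changes of -0.19, -1.24, -0.34 and -0.69 in cluster 8, none of them called.

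The only gene that rose was Gm15155, on chromosome X at 155624741 to 156345887. It had 185 and 177 UMIs in control (254 and 231 CPM) and 359 and 277 in CrT-KO (403 and 378 CPM). The genotypes were far apart relative to their spread, with means of 243 ± 15.8 CPM (SD, n = 2) and 390 ± 17.6 CPM (SD, n = 2). The log2 change was 0.69 (SE 0.15, edgeR adjusted p = 0.0504). In cluster 8 it was 0.66 (edgeR adjusted p = 0.104), with 271 and 272 CPM in control and 446 and 405 CPM in CrT-KO, and over the whole cluster 0.64 (edgeR adjusted p = 0.0397). Without Control replicate 2 it was not called (log2 0.65). Its UMIs came from 40 and 40 nuclei in control and 56 and 51 in CrT-KO.

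The next genes in the upward direction were not called. Plcb4, a phospholipase C, had 93, 114, 177 and 181 UMIs (log2 0.68, edgeR adjusted p = 0.155), the imprinted splicing-factor gene Snrpn had 63, 70, 121 and 111 (log2 0.69, edgeR adjusted p = 0.168) and the phosphate transporter gene Slc20a1 had 27, 21, 55 and 46 (log2 0.95, edgeR adjusted p = 0.242). In these 3 genes each CrT-KO library was above each control library. Intu, Thap3, D130043K22Rik, Elavl3, Rab3c and Nckap5 followed, with log2 changes from 0.49 to 1.62 and edgeR adjusted p from 0.298 to 0.350.

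Energy and chaperone genes gave no call. No gene passed among the 16 tested glycolysis, glucose and lactate genes, the 21 nuclear and 7 mitochondrial genes of the respiratory chain, and the 12 sodium-potassium and calcium pumps. Mpc1, a subunit of the mitochondrial pyruvate carrier, had 63 and 57 UMIs in control and 95 and 92 in CrT-KO (log2 0.52, edgeR adjusted p = 0.538). Of 15 cytosolic and mitochondrial chaperones none was called. Hsph1, a relative of Hsp70, had 29, 29, 16 and 15 UMIs (log2 -1.02, edgeR adjusted p = 0.362) and Hspa8 had 13, 14, 6 and 6 (log2 -1.27, edgeR adjusted p = 0.670). Of 7 chaperones of the endoplasmic reticulum none was called, with Hsp90b1 at 32, 27, 17 and 18 UMIs (log2 -0.87, edgeR adjusted p = 0.503). These 3 chaperones were lower in both CrT-KO libraries without passing the adjustment. Of the 15 and the 7 chaperones, 5 and 4 were lower without overlap and 0 were higher, where 18.7% of all genes tested were lower. The median log2 changes of these chaperone lists were -0.04 and -0.17. Chaperones were not alone in leaning 1 way. Of the 16 glycolysis, glucose and lactate genes, 7 were higher without overlap and 3 lower. Of 24 neurofilament, cytoskeletal and motor genes, 11 were higher and 2 lower, where 17% of all genes tested were higher. Dnajb4 (log2 0.10) and Hspa4 (log2 0.09) were slightly upward with overlapping genotypes.

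The channels and receptors that set the excitability of these cells were mostly without a call. None of 3 HCN genes was called, with Hcn2 at 18, 17, 39 and 25 UMIs (log2 0.74, edgeR adjusted p = 0.672), nor any of 8 sodium channels or 14 calcium channels. Cacna2d1, an auxiliary calcium channel subunit, had 554, 644, 601 and 395 UMIs (log2 -0.40, edgeR adjusted p = 0.455). Of 35 potassium channel genes, 1 fell, Kcnc2, and 0 rose. Dpp10, a partner of Kv4 channels, had 12161, 12819, 18179 and 13891 UMIs (16689, 16764, 20394 and 18948 CPM), and its log2 change of 0.24 was called by DESeq2 but not by edgeR. Of 21 glutamate receptor genes, 1 fell, Grin3a, and the AMPA receptor gene Gria4 had 369, 421, 351 and 243 UMIs (log2 -0.54, edgeR adjusted p = 0.168). Of 11 GABA-A receptor genes none was called, with a median log2 change of -0.19, and Gabrb1 had 642, 712, 606 and 507 UMIs (log2 -0.40, edgeR adjusted p = 0.350).

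Of 34 axon guidance genes, 3 fell, namely Unc5d, Dcc and Nrp2, where 0.546% of all genes tested were called. Of 19 cadherins, 2 fell, Cdh9 and Pcdh15, the protocadherin of hair-cell tip links (181, 335, 195 and 78 UMIs, log2 -1.06, edgeR adjusted p = 0.0982). Of 36 synaptic adhesion genes, 1 fell, the receptor phosphatase gene Ptprt (415, 344, 259 and 266 UMIs, log2 -0.64, edgeR adjusted p = 0.0982). No list was tested for enrichment. The medians of these 3 lists were -0.02, -0.08 and 0.03, near the -0.0024 of all genes. Dcc was the only one of the 6 genes called again in cluster 8. Nrp2, Pcdh15 and Ptprt each lost the call when either of 2 libraries was left out. Their log2 changes were then -1.28 for Nrp2 and -0.56 for Pcdh15 without Control replicate 2, -1.60 for Nrp2 and -0.46 for Ptprt without CrT-KO replicate 1, -0.66 for Pcdh15 without CrT-KO replicate 2 and -0.47 for Ptprt without Control replicate 1. None of 24 neurofilament, cytoskeletal and motor genes was called, and Stmn3, a microtubule-binding stathmin, had 53, 47, 104 and 66 UMIs (log2 0.64, edgeR adjusted p = 0.396).

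Of 4 tested immediate-early and activity-regulated genes none was called. Homer1 had 496, 544, 466 and 368 UMIs (log2 -0.44, edgeR adjusted p = 0.299) and the neurotrophin gene Bdnf had 33, 54, 36 and 15 (log2 -0.90, edgeR adjusted p = 0.488). In CPM both CrT-KO libraries lay below both control libraries for Homer1 and for Bdnf, which stood at 45.3 and 70.6 CPM in control and 40.4 and 20.5 CPM in CrT-KO. Among 6 genes named in earlier results on all excitatory neurons, which include these same nuclei and give no independent evidence, Fgf1 fell and Skap1 had 24, 40, 56 and 26 UMIs (log2 0.23, edgeR adjusted p = 0.943). Slc6a8, Tnnc1, Abca4 and Potegl did not pass the filter, the last 3 with 0, 1, 2 and 2, with 4, 2, 7 and 6 and with 3, 2, 12 and 7 UMIs.

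The last comparison asked whether the effect of genotype differed from that in the other excitatory nuclei of the same mice. Among those nuclei 38 of 13463 genes were called (0.282%). Fgf1 had a log2 change of -1.29 (edgeR adjusted p = 3.73e-05) there, and the difference from the gated nuclei was -0.30 (edgeR interaction, adjusted p = 0.994). Arhgap26 had -1.25 (edgeR adjusted p = 2.16e-05), with a difference of -0.12 (adjusted p = 0.999). In 707 excitatory nuclei with Deptor and the same limits on Hs3st4 and Cux2, where 14 of 8541 genes were called (0.164%), Fgf1 was at -1.17 (edgeR adjusted p = 0.0287). In 2372 nuclei with more than 1 UMI of Cux2, a gene of superficial layers, where 68 of 11116 were called (0.612%), it was at -1.11 (edgeR adjusted p = 0.00589), and in 3833 nuclei with more than 4 UMIs of Hs3st4, where 5 of 11808 were called (0.0423%), at -1.47 (edgeR adjusted p = 0.000136). Fgf1 thus fell in each of these populations.

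Other genes did differ. The interaction was called in 71 of 13091 genes (0.542%), and the 5 with the smallest p were Npsr1, Prkg1, Unc5d, Kcnc2 and Ndst4. Npsr1 had a log2 change of -0.10 (edgeR adjusted p = 0.890) in the other excitatory nuclei, a difference of -1.89 (SE 0.17, edgeR adjusted p = 5.41e-23). It was -1.22 without Control replicate 1 and -2.43 without Control replicate 2, both called. With only the gated nuclei of cluster 8 the difference was -2.40 (edgeR adjusted p = 5.35e-35). Against the Deptor nuclei alone it was -1.45 (edgeR adjusted p = 0.174). Npsr1 also fell in the Cux2 nuclei, where it was called (log2 -1.26, edgeR adjusted p = 0.0704). In the Deptor nuclei its change was -0.50 (edgeR adjusted p = 0.745) and in the Hs3st4 nuclei -0.06 (edgeR adjusted p = 0.973). Dcc had -0.08 (edgeR adjusted p = 0.824) in the other excitatory nuclei and a difference of -0.78 (edgeR adjusted p = 4.84e-07), which was -1.17 (edgeR adjusted p = 2.28e-12) with cluster 8 only and -0.76 (edgeR adjusted p = 0.0145) against the Deptor nuclei. Kcnc2 had -0.14 (edgeR adjusted p = 0.703) and a difference of -1.50 (edgeR adjusted p = 4.59e-10), and of -1.41 (edgeR adjusted p = 0.000723) with the gated nuclei of cluster 8 only. Over the whole of cluster 8 the difference of Kcnc2 was -0.47 and not called (edgeR adjusted p = 0.614).

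The differences of Prkg1 (-1.37, edgeR adjusted p = 2.15e-18), Unc5d (-1.18, edgeR adjusted p = 3.02e-12) and Ndst4 (-1.76, edgeR adjusted p = 1.36e-08) did not stay called with cluster 8 only. There they were -0.15 (edgeR adjusted p = 1), 0.60 (edgeR adjusted p = 0.843) and -0.70 (edgeR adjusted p = 0.989). Over the whole of cluster 8 they were upward for Prkg1 (1.03, edgeR adjusted p = 8.40e-10) and Unc5d (0.94, edgeR adjusted p = 3.81e-10). Both populations came from the same 4 mice and this fit shared 1 estimate of the spread over all genes, so its p-values are far smaller than the number of mice could give alone. Gm15155 had a log2 change of 0.30 (edgeR adjusted p = 0.134) in the other excitatory nuclei, and the difference of 0.40 was not called (edgeR adjusted p = 0.388).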

How the data were processed

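Nuclei were profiled with a droplet 3′ RNA method in 4 libraries. Per the labels and the study's methods, the authors aligned reads with Cell Ranger 3.1.0 to a pre-mRNA reference of GRCm38/mm10 in which the whole gene body counts as exon, so intronic reads add to a gene. How reads in overlapping genes were counted is not given in the sources used here. The deposited matrices hold raw UMI counts per gene and nucleus, not normalized. The submitters' processing notes also name FastQC and Seurat 3.1.4.

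Here, doublets were called per library with Scrublet (scanpy 1.11.5) and left out (1236 nuclei). Gated nuclei were summed per library. Sums were tested with edgeR 4.0.16 (TMM scaling, filterByExpr with a minimum count of 10 and total of 15, quasi-likelihood test, adjusted p under 0.1), after a test on simulated counts. Values that CPM gives were computed from the same sums. The interaction fit added the other excitatory nuclei with the library as a block. Named genes were Slc6a8 and the creatine genes, up to 15 called genes per direction with non-overlapping libraries, the next genes by p to fill 10, the top 5 of the interaction and the top 2 per direction of 19 gene lists. Clustering of the excitatory nuclei without doublets used 3000 variable genes, 30 components, 20 neighbours and resolution 1. Alternatives included DESeq2 1.42.0, other scalings, filters and gates, and leaving out each library. The gate, the genes named and the lists were chosen with earlier results of these data known. Each library is 1 mouse, so p-values describe 2 against 2 mice. Coordinates are GRCm38 from the reference annotation, which matched 21816 of 21933 gene identifiers (99.5%). The oligodendrocyte nuclei used for background had at least 5 UMIs of Mbp and St18 together and none of Slc17a7, Gad1 or Gad2. Slc6a8 was not tested because it missed the count minimum. The values of 1 ion channel gene are not reported here.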

Additional observations from a re-analysis of the deposited data

Results flagged for a closer look

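5 genes had a genotype effect in the gated nuclei that differed from the other excitatory nuclei of the same mice in the edgeR interaction test, given as the log2 difference of the CrT-KO effect. The difference was -1.89 for Npsr1, -1.37 for Prkg1, -1.18 for Unc5d, -1.50 for Kcnc2 and -1.76 for Ndst4, each in the downward direction. With the gated nuclei of cluster 8 only, Npsr1 (-2.40) and Kcnc2 (-1.41) were called again and Prkg1 (-0.15), Unc5d (0.60) and Ndst4 (-0.70) were not. Over the whole of cluster 8 only Npsr1 (-1.73) of the 5 was called in the same direction, Kcnc2 (-0.47) and Ndst4 (-0.24) were not called, and Prkg1 (1.03) and Unc5d (0.94) were called upward. Among the Cux2 nuclei, a part of the other excitatory nuclei, Npsr1 was also called lower (log2 -1.26, edgeR adjusted p = 0.0704). Groups of 2 libraries are too small for a test of single outlying samples.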

How the results depend on the processing

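Of the 35 called genes, counts moved beyond 1.5 times under DESeq2 (13), without a filter on low counts (60), at an adjusted p under 0.05 (15), with Bcl11b at 2 or more UMIs (15), with 3 or more of the 5 genes (3), with Fezf2 detected as well (4), without nuclei carrying 2 or more striatal markers (6 of 1108 genes tested), with gated nuclei of cluster 8 only (12) and with all of cluster 8 (8); the cause was not tested. The version without striatal-marker nuclei kept only 7 and 5 gated nuclei in control and 4 and 5 in CrT-KO. Most of the 242 gated nuclei thus carried 2 or more of the listed striatal markers, and that version rests on few nuclei. Of the 35, 31 were called again with RLE size factors and 25 with doublets kept. Leaving out 1 library gave 28 to 79: 79 without Control replicate 1, 43 without Control replicate 2, 79 without CrT-KO replicate 1 and 28 without CrT-KO replicate 2. With the replicate number as a block 19 were called, 18 of them among the 35. Same-numbered libraries did not deviate together (r = -0.004 over genes). With 2 libraries per genotype this cannot exclude that the numbers pair the mice. The 71 interaction calls became 46 at an adjusted p under 0.05, 12 against the Deptor nuclei, 20 with cluster 8 only and 25 with the whole cluster, and 20 to 91 without 1 library (91, 41, 62 and 20 without Control replicates 1 and 2 and CrT-KO replicates 1 and 2). Directions turned, on the log2 scale, in the whole cluster for Prkg1 (0.84), Unc5d (0.91), Mapk4 (0.58), Trpm3 (0.45), Maml2 (0.050), Plcl1 (0.040), Col23a1 (0.15), Nrp2 (0.091) and Pcdh15 (0.073), in the gated nuclei of cluster 8 for Unc5d (0.55), Mapk4 (0.064) and Trpm3 (0.36), with 3 or more genes for Unc5d (0.015), Rfx3 (0.23) and Trpm3 (0.0056), with Fezf2 for Sorcs3 (0.029), Lsamp (0.41), Ptprt (0.55) and Grin3a (0.16), and without striatal-marker nuclei for Ptprt (0.61). Among the 5 genes with the smallest interaction p, the difference turned for Prkg1 (1.03) and Unc5d (0.94) in the whole cluster and for Unc5d (0.60) in cluster 8 only. The share of gated nuclei kept its direction in every version run, with differences of 0.0812 to 0.310 percentage points. The Slc6a8 log2 ratio of -3.29 ranged from -3.48 to -2.43 without 1 library, with no value without CrT-KO replicate 1, with Bcl11b at 2 or more, with Fezf2 or without striatal-marker nuclei, where 1 genotype had no UMI, and the settings of the edgeR fit other than its filter could not give one. With 242 nuclei, genes under about 10 UMIs per library were beyond the depth of these sums.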

Other observations

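Other genes were called only in alternatives, and are named after their values were seen. With the gated nuclei of cluster 8 only, the receptor tyrosine kinase gene Alk fell (log2 -1.38, edgeR adjusted p = 0.0702) and so did the potassium channel gene Kcnk13 (log2 -2.18, edgeR adjusted p = 0.0702), whereas over all gated nuclei they were at -1.19 (edgeR adjusted p = 0.183) and -1.34 (edgeR adjusted p = 0.341). Over all 449 nuclei of cluster 8, Cntnap5c (log2 0.76, edgeR adjusted p = 0.0114) and the netrin-G2 gene Ntng2 (log2 1.72, edgeR adjusted p = 0.0582) rose.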
